A study of Mus musculus with 13 samples.

Results

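The proneural bHLH genes Neurog1, Neurog2, Neurog3, Neurod1, Neurod2, Neurod4, Neurod6, Atoh1 and Ptf1a are 9 of the 21938 protein-coding genes on the mouse autosomes and sex chromosomes. They were taken by name, with no measured value in the rule. Each was described by the listed H3K4me3 and H3K27me3 peaks within 2 kb of its transcription start site (TSS) or in the gene, and by the listed OLIG2 peaks in the gene or within 50 kb of it, on the mm10 (GRCm38) genome.

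The study followed the oligodendrocyte lineage of untreated mice through neural stem cells (NSCs), oligodendrocyte precursor cells (OPCs) and newly formed oligodendrocytes (NFOs). The NSCs were purchased, came from the cortex of E14.5 CD-1 mice according to the protocol and from C57BL/6 according to the strain label, and were grown as a culture. The OPCs and NFOs were taken from C57BL/6 brain at postnatal day 7 by immunopanning, OPCs on PDGFRα antibody and NFOs on GalC antibody after microglia and endothelial cells had been removed. H3K4me3 and H3K27me3 ChIP-Seq was used for the 3 stages, and OLIG2 ChIP-Seq for OPCs and NFOs. The paper also reports OLIG2 ChIP-Seq in NSCs, of which no library is among the samples here. OLIG2 and IgG RIP-Seq was used for cells that the titles call NFOs and the methods call NSCs. There was 1 library per group and no replicate, so no difference below was tested, and every difference between stages compares libraries whose depth the peak lists do not give. The antibody label of each of the 6 histone libraries names the opposite mark to the title, and the titles were followed. Peaks titled H3K4me3 reached the 4 kb around the TSS of 61.1%, 57.6% and 40.1% of all genes in NSCs, OPCs and NFOs, and those titled H3K27me3 10.5%, 13.4% and 8.05%.

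Proneural bHLH factors bind DNA as heterodimers with E proteins at E-boxes, the hexamer CANNTG, and start neuronal programs in progenitors. Neurogenins act early, the NeuroD factors largely act later in maturing neurons, and Atoh1 and Ptf1a specify groups of neurons of the hindbrain and spinal cord. H3K4me3 marks active promoters and H3K27me3 is laid down by Polycomb repressive complex 2. Promoters that carry both marks are called bivalent and are frequent at developmental regulators with CpG-rich promoters. OLIG2 is itself a bHLH factor, needed for oligodendrocyte and motor neuron fates.

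The promoters of the 9 genes differed widely in CpG number, and 4 are shown here because they span that range. Each line gives the 250 bases upstream of the RefSeq start on the strand of the gene, GRCm38, 5′ to 3′, with every CG in capitals. Neurog1 lies at chr13:56252181-56252430 on the minus strand, Atoh1 at chr6:64728875-64729124 on the plus strand, Neurod4 at chr10:130280255-130280504 on the minus strand and Neurod6 at chr6:55681264-55681513 on the minus strand.
Neurog1: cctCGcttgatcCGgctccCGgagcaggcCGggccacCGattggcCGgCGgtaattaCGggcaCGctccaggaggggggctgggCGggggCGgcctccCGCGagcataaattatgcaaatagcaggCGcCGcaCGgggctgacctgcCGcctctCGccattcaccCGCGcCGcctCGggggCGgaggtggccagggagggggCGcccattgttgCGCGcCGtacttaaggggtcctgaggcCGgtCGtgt
Atoh1: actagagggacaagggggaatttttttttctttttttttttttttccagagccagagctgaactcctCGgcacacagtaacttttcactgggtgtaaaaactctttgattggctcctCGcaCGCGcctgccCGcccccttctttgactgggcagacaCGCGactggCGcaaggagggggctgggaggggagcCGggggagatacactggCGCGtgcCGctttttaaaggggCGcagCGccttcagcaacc
Neurod4: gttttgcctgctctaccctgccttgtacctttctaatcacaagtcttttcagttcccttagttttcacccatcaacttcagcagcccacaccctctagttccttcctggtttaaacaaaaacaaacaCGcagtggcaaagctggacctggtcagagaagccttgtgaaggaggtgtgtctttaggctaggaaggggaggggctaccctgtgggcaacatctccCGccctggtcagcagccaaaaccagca
Neurod6: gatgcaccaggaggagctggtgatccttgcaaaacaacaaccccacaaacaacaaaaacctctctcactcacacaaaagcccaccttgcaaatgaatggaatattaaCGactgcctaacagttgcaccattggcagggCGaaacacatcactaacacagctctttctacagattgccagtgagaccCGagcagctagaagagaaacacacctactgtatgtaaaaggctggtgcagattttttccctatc
Over the 300 bases from 250 upstream to 50 downstream of the start, the number of CpG dinucleotides was 32 at Neurog1, 26 at Neurod1, 23 at Ptf1a, 20 at Atoh1, 19 at Neurog3, 16 at Neurod2, 10 at Neurog2, 4 at Neurod4 and 3 at Neurod6. The median of 16522 RefSeq promoters was 14, with quartiles of 4 and 25. Thus 6 of the 9 members lay above the median, and Neurog2, Neurod4 and Neurod6 below it. RefSeq gives a second promoter for Neurod4, which was not printed.

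The OLIG2 sites at Neurog2, Neurod2 and Neurod4 are shown because they were the strongest listed in NFOs within 50 kb of any member. Each line is a listed NFO peak on the plus strand of GRCm38, 5′ to 3′, with every CANNTG in capitals. The Neurog2 peak lies at chr3:127626018-127626253, the Neurod2 peak at chr11:98300881-98301116, and the Neurod4 peaks at chr10:130311476-130311711 and chr10:130314471-130314706. None of these 4 peaks lies in an annotated gene.
Neurog2, 7.0 kb upstream: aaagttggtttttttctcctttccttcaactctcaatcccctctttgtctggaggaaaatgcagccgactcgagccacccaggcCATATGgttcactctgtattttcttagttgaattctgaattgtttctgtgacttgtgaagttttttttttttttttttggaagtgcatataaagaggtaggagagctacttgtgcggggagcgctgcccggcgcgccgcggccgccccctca
Neurod2, 28.6 kb downstream: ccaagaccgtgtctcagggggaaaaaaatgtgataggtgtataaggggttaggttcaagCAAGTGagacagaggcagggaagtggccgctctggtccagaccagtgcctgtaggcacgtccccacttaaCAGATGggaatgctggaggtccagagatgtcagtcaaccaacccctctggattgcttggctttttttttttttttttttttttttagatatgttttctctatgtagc
Neurod4, 31.4 kb upstream: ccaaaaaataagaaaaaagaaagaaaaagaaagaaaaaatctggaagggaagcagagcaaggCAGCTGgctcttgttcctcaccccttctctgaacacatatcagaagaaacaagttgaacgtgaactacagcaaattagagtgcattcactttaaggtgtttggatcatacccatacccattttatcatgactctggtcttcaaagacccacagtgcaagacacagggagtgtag
Neurod4, 34.3 kb upstream: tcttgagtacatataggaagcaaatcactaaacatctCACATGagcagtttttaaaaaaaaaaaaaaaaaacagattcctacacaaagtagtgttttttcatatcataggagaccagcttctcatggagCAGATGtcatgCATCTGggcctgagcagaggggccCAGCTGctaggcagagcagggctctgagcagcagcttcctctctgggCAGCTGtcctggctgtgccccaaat
The Neurog2 site held 1 E-box, CATATG. The Neurod2 site held CAAGTG and CAGATG. The Neurod4 site at 31.4 kb held 1 CAGCTG, and that at 34.3 kb held 5 E-boxes, among them 2 CAGCTG. An E-box is a common match, since CANNTG was found in 70.4% of OPC peaks and 69.3% of NFO peaks, and CANNTG reads the same on both strands. CAGCTG was found in 13.6% of OPC and 10.1% of NFO peaks, CAGATG or its reverse complement CATCTG in 18.9% and 17.4%, and CATATG in 6.20% and 6.51%.

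H3K27me3 was listed at 7, 8 and 8 of the 9 genes for NSCs, OPCs and NFOs, against 33.7%, 24.7% and 13.2% of all protein-coding genes. H3K4me3 was listed at 5, 5 and 3 members, against 67.1%, 62.5% and 47.9% of all genes. The members thus lay far above the background for the repressive mark and, under this rule, within about 1 gene of it for the active mark. Within 2 kb of the TSS alone, H3K4me3 was listed at 5, 3 and 2 members, against 14114, 13335 and 9561 of all genes. With fold enrichment above 5 it was listed at 2, 1 and 1 members, against 58.0%, 50.4% and 23.9%. Nearness to the background for the active mark therefore depends on the rule. Neurod4 had neither mark at any stage, and no member carried H3K4me3 alone at its TSS at any stage.

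**Figure D1:**
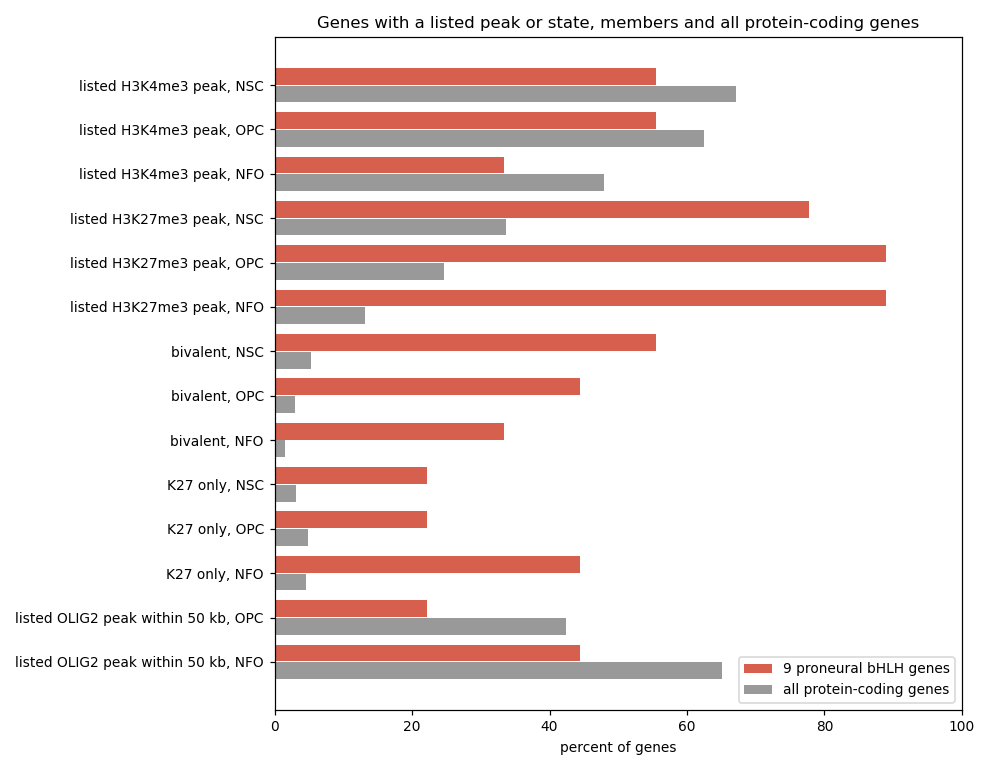
Percent of genes (x axis) with each listed peak or chromatin state (y axis) for the 9 proneural bHLH genes (red) and all 21938 protein-coding genes (gray), 1 library per stage and mark. The red bars exceed the gray ones by far for H3K27me3, bivalent and K27 only, and lie nearer to them for H3K4me3 and OLIG2.

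Each gene was then given a state from the peaks within 2 kb of any of its TSSs. A gene was bivalent where H3K4me3 and H3K27me3 peaks overlapped by at least 1 bp and no peak of either mark stood alone, K27 only or K4 only where peaks of that mark alone were near, mixed where an overlap and a lone peak or lone peaks of both marks were near, and none where no peak was near. The bivalent members numbered 5, 4 and 3 over the same order of stages, against 5.3%, 2.99% and 1.56% of all genes. K27 only members numbered 2, 2 and 4, against 3.07%, 4.93% and 4.53%. Mixed members numbered 0, 2 and 1, and members with no peak 2, 1 and 1. The share of all genes in either of these states is not given here. Whether these counts differ from the background is therefore not read from them. In bulk cells, both marks on the same allele and each mark in different cells cannot be told apart. Neurog2, Neurod1 and Atoh1 were bivalent at every stage. Neurog1 was bivalent in NSCs and OPCs and mixed in NFOs. Neurod2 went from bivalent to mixed to K27 only. Neurog3 was K27 only at every stage, Ptf1a K27 only in NSCs and NFOs and mixed in OPCs, and Neurod6 had no peak in NSCs and was K27 only in OPCs and NFOs.

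The state rule lets a broad H3K27me3 peak near the TSS pair with an H3K4me3 peak farther away, and several of these calls rest on such a pair. In OPCs and NFOs the H3K4me3 peak that made Neurog1 bivalent or mixed lay past the end of the gene, from 2230 to 2421 bp and from 2207 to 2421 bp downstream of the TSS. At Neurod1 it lay from 2603 to 2865 bp downstream in OPCs and from 2248 to 2798 bp in NFOs, within the gene. At Neurod2 in OPCs it lay from 2222 to 2467 bp downstream, also within the gene. When both peaks had to lie within 2 kb of the TSS, a choice made after seeing the data, the bivalent members numbered 5, 1 and 1, against 4.81%, 2.71% and 1.25% of all genes under the same limit. The NSC count thus stood far above the background, while those in OPCs and NFOs rest on 1 gene each. The bivalent member was then Atoh1 in OPCs and Neurog2 in NFOs.

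**Figure D2:**
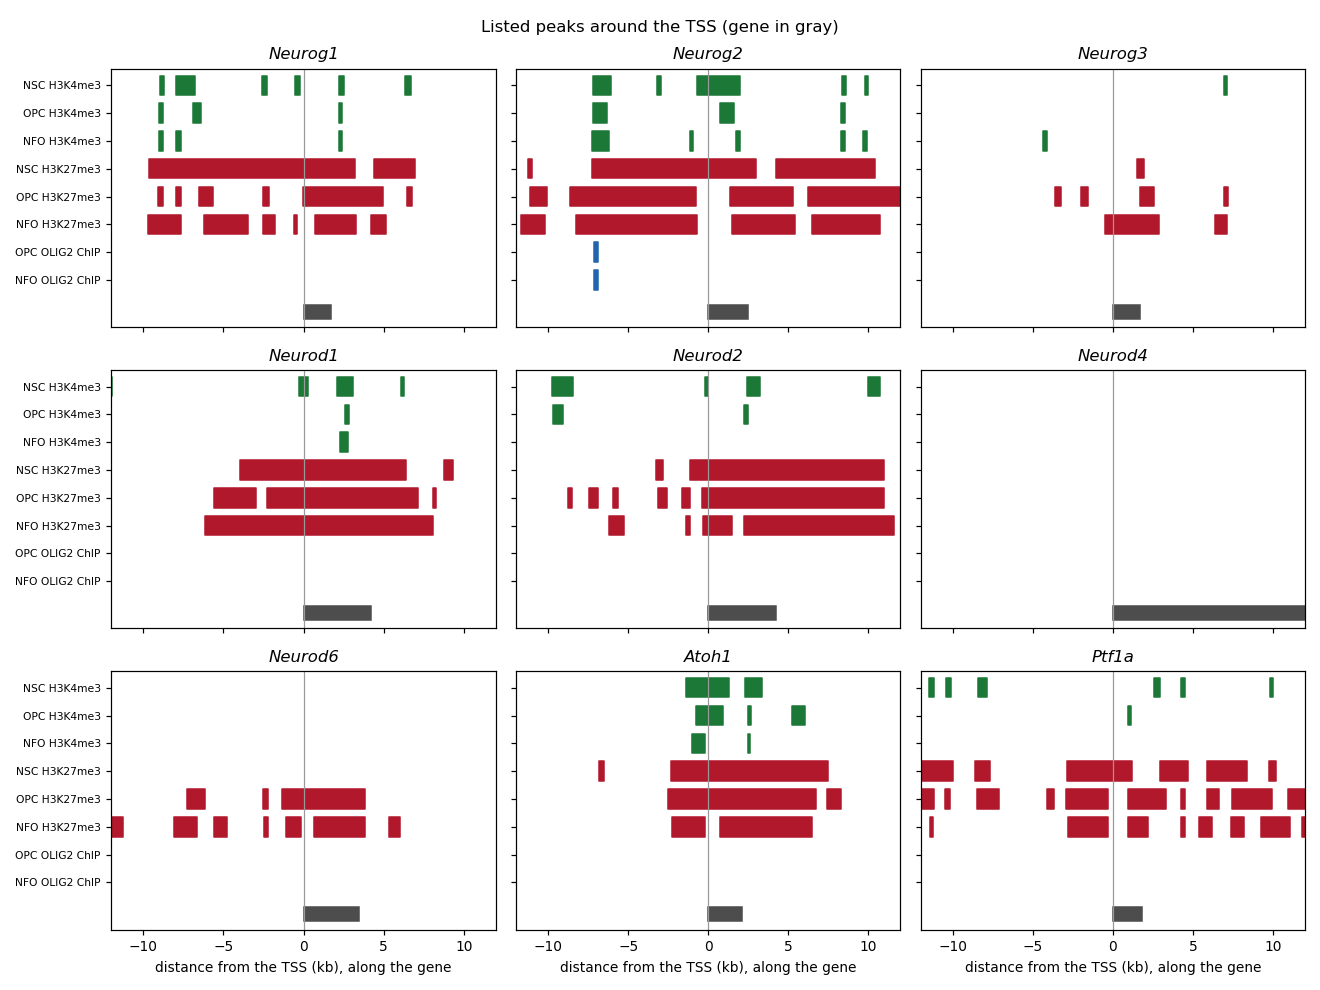
Listed peaks within 12 kb of the TSS of each gene, with distance along the gene on the x axis (kb) and 1 row per library on the y axis: H3K4me3 in green, H3K27me3 in red, OLIG2 in blue and the gene in gray. Broad H3K27me3 peaks span the TSS of 6 genes in NSCs and are broken at several TSSs in OPCs and NFOs, the only OLIG2 peaks in view lie upstream of Neurog2, and the Neurod4 panel is empty.

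Among the neurogenins, Neurog1 had 1 very broad H3K27me3 peak in NSCs and several shorter ones in NFOs. This factor drives early sensory and cranial neurogenesis. Its TSS was spanned by an H3K27me3 peak of 12878 bp in NSCs with a fold enrichment over the control of 5.37. In OPCs the peak at the TSS was 4998 bp wide with a fold enrichment of 6.32 and reached only 28 bp upstream. In NFOs 3 peaks of 2532, 200 and 729 bp lay around the TSS, the highest at 6.26, and left a gap of 1142 bp there. Of the 20 kb centered on the TSS, listed H3K27me3 peaks covered 15.411, 7.107 and 9.174 kb in the 3 libraries. The covered length was thus lower in both later stages than in NSCs. Over the 12 kb on either side of the TSS, the fold enrichment of the listed H3K27me3 peaks at Neurog1 ran from 5.37 to 5.57 in NSCs, from 5.12 to 16.3 in OPCs and from 3.64 to 8.25 in NFOs. H3K4me3 within 2 kb was listed only in NSCs, as a peak of 300 bp with a fold enrichment of 3.72, higher than at only 4.02% of the genes with such a peak.

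Neurog2 had both marks at every stage, but H3K4me3 covered its TSS in NSCs only. It is the main proneural factor of cortical glutamatergic neurons. In NSCs an H3K4me3 peak of 2660 bp with a fold enrichment of 4.19 spanned the TSS. In OPCs a peak of 890 bp at 3.61 lay from 707 to 1596 bp downstream. In NFOs there were peaks of 188 bp at 3.25, whose FDR of 0.0726 is above the limit of the Methods, and of 253 bp at 4.003. The H3K27me3 peak of NSCs was 10199 bp wide, covered the TSS and had a fold enrichment of 5.15. In OPCs peaks of 7872 and 3918 bp, the higher at 7.95, left 2122 bp at the TSS uncovered, and in NFOs peaks of 7551 and 3884 bp, the higher at 7.12, left 2195 bp. Over 20 kb the H3K27me3 cover was 15.978, 15.537 and 14.962 kb, the narrowest range of the members with cover at every stage.

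A more prominent H3K4me3 site lay upstream of Neurog2. It was listed in NSCs with 1132 bp and a fold enrichment of 8.13, in OPCs with 891 bp and 5.44, and in NFOs with 1048 bp and 7.89, between about 7.2 and 6.1 kb upstream of the TSS. At every stage its fold enrichment was above that of the H3K4me3 peak nearest the Neurog2 TSS, and it lay in full inside an H3K27me3 peak of the same stage.

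Neurog3, which directs endocrine cells of the pancreas, had little cover in NSCs and more in NFOs. The listed H3K27me3 peaks were 437 bp wide with a fold enrichment of 4.86 in NSCs, 462 and 855 bp with up to 9.49 in OPCs, and 3348 bp with 4.78 in NFOs. Only the NFO peak covered the TSS. Cover over 20 kb was 0.437, 1.864 and 4.061 kb, lowest in NSCs, where Neurog1 had its highest. No H3K4me3 peak was listed at the gene.

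Among the NeuroD genes, Neurod1 had its TSS region fully under H3K27me3 at every stage. It acts in differentiating neurons and in endocrine cells. Its TSS lay under 1 unbroken peak at every stage, 10391, 9405 and 14227 bp wide in NSC, OPC and NFO libraries. The fold enrichments were 3.86, 5.19 and 4.75. The NFO peak was wider than the widest H3K27me3 peak at 97.4% of the genes that had one. The 4 kb around the TSS were fully covered at all 3 stages. Taken 1 stage at a time, full cover was found at 0.852%, 0.552% and 0.387% of all genes in NSCs, OPCs and NFOs. An H3K4me3 peak of 561 bp covered the TSS in NSCs at a fold enrichment of 3.56, beside one of 1034 bp at 6.20 in the gene. In OPCs and NFOs only the peak in the gene was listed, with 263 bp at 4.58 and 551 bp at 3.90.

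Neurod2, a factor of maturing cortical neurons, had listed H3K4me3 in NSCs and OPCs and none in NFOs. In NSCs peaks of 162 bp at 4.46 next to the TSS and 851 bp at 3.41 in the gene were listed, in OPCs 1 peak of 246 bp at 4.39, and in NFOs none. H3K27me3 peaks of 12132 and 11369 bp covered the TSS in NSCs and OPCs, with fold enrichments of 4.66 and 5.45. In NFOs there were peaks of 9346, 1847 and 294 bp, of which that of 1847 bp covered the TSS with a fold enrichment of 5.79.

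Neurod6 had listed H3K27me3 at the later stages and none in NSCs. It is expressed in cortical projection neurons. No peak of either mark lay within 10 kb of its TSS in NSCs. In OPCs an H3K27me3 peak of 5193 bp with a fold enrichment of 4.50 covered the TSS, and in NFOs peaks of 3165 and 941 bp with up to 4.95 lay on either side of a gap of 821 bp. Cover over 20 kb was 0, 6.569 and 7.263 kb. Its promoter held 3 CpG dinucleotides, the fewest of the members, so this listed H3K27me3 lay at a CpG-poor promoter.

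Neurod4 had no listed H3K4me3 or H3K27me3 peak within 10 kb of its TSS in any of the 3 stages. It acts with the neurogenins in differentiating neurons. Its promoter held 4 CpG dinucleotides. Among all genes with a promoter, the median CpG number of those with no peak in NSCs was 3, against 20 for bivalent, 4 for K27 only and 21 for K4 only genes. The same medians were 3, 20, 7 and 22 in OPCs and 5, 19, 15 and 22 in NFOs.

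**Figure D3:**
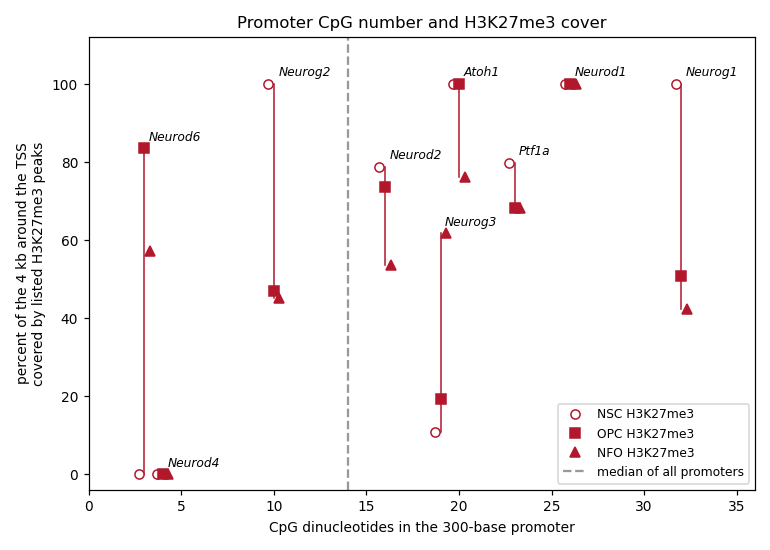
CpG dinucleotides in the 300-base promoter (x axis) against the percent of the 4 kb around the TSS covered by listed H3K27me3 peaks (y axis), 1 symbol per gene and stage joined by a line, shifted slightly sideways where they would overlap. Neurod4 sits at 0 and Neurod6 reaches over 80 in OPCs with 3 CpG, and the dashed line is the median of all promoters at 14 CpG.

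Within 2 kb of the TSS, Atoh1 had the highest H3K4me3 fold enrichment of the members at every stage. It specifies cerebellar granule neurons and hair cells. Its H3K4me3 peak was 2708, 1655 and 801 bp wide along the lineage, with fold enrichments of 7.16, 7.29 and 10.2. Width and height thus ran in opposite directions over the 3 libraries, and the NFO peak no longer covered the TSS. The median highest fold enrichment at all genes with an H3K4me3 peak within 2 kb was 8.44, 6.50 and 5.02, so Atoh1 lay below the typical promoter in NSCs and above it in OPCs and NFOs. H3K27me3 covered the TSS with peaks of 9812 and 9212 bp in NSCs and OPCs, at fold enrichments of 5.21 and 6.94. In NFOs peaks of 2042 and 5738 bp with up to 5.57 left a gap of 955 bp at the TSS.

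Ptf1a, which specifies GABAergic neurons and pancreas, had the lowest H3K27me3 fold enrichment in NSCs among the members with a peak there. Neurod4 and Neurod6 had no such peak. Its peak there was 4038 bp wide with a fold enrichment of 3.35, below the limit of 3.5 in the Methods. In OPCs peaks of 2600 and 2347 bp at 4.03 and 3.83, and in NFOs peaks of 2491 and 1235 bp at 4.32 and 4.20, lay on either side of the TSS. The gap between them was 1274 bp in both, with both edges at the same base. Over the whole lists 2.24% of the OPC H3K27me3 edges stood at the same base in NFOs. An H3K4me3 peak of 181 bp at 4.23 was listed in OPCs only.

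The domains of the members were broad. The median of the widest H3K27me3 peak over the members with one within 2 kb of the TSS was 10199, 6532.5 and 3256.5 bp over the stages, against 687.5, 665 and 891.5 bp over all genes with such a peak. These sets had 7, 8 and 8 members. Such breadth was not particular to the members. At Barhl1, a gene of the last list described below, the widest peaks were 8079, 8536 and 6243 bp, while other genes of that list had none. The median percent of the 4 kb around the TSS under listed H3K27me3 peaks was 79.8, 68.2 and 57.2 over the 9 members, and 0 over all genes at each stage. For H3K4me3 the medians were 4.05, 0 and 0 over the members and 30.9, 15.8 and 0 over all genes. The falling order of the H3K27me3 medians did not hold for every member. H3K27me3 cover at Neurog3 ran the other way with 10.9, 19.3 and 61.8. It was 0, 83.5 and 57.2 at Neurod6 and 100 at each stage at Neurod1.

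**Figure D4:**
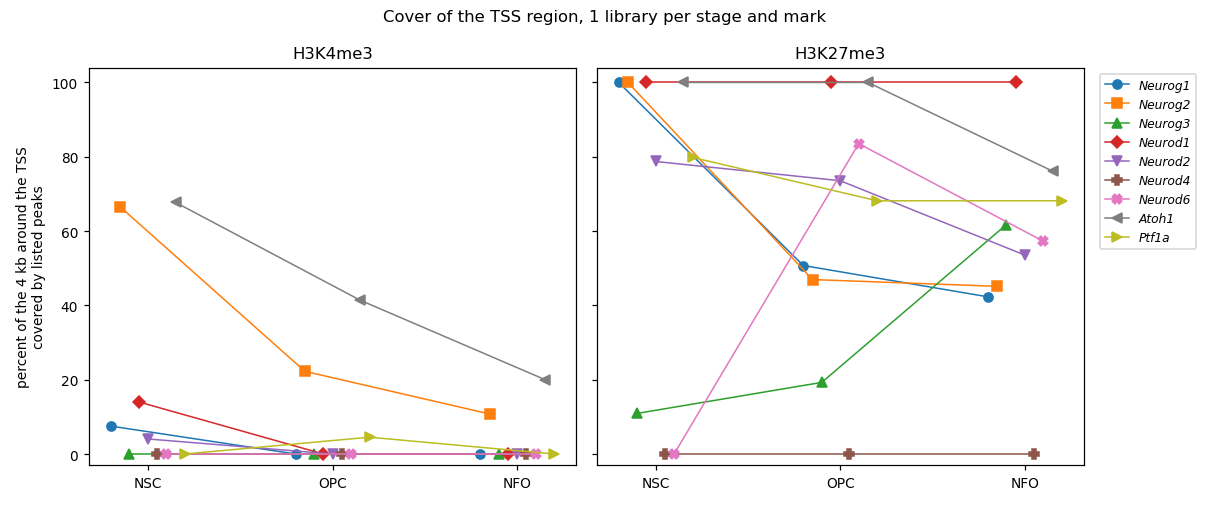
Percent of the 4 kb around the TSS covered by listed H3K4me3 peaks (left) and H3K27me3 peaks (right) on the y axis, by stage on the x axis, 1 line per gene, points shifted sideways for legibility. Neurog2 and Atoh1 stand above the other genes for H3K4me3 in every stage, while H3K27me3 was highest in NSCs for Neurog1, Neurog2, Neurod2 and Ptf1a and higher in NFOs than in NSCs for Neurog3 and Neurod6.

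Gaps in H3K27me3 at the TSS, with listed peaks on either side, were found at no member in NSCs, at Neurog2, Neurog3 and Ptf1a in OPCs, and at Neurog1, Neurog2, Neurod6, Atoh1 and Ptf1a in NFOs. They ran from 821 to 3229 bp. Their GC content was 69.0% at Neurog1, 65.3% and 65.7% at Neurog2 in OPCs and NFOs, 56.8% at Neurog3, 61.5% at Atoh1, 67.3% at Ptf1a and 39.0% at Neurod6. Peak names of the NSC lists say that reads were single and those of the OPC and NFO lists that they were paired, and the part of base composition or read type in these gaps was not tested.

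Listed OLIG2 peaks within 50 kb were found at 2 of the 9 members in OPCs and at 4 in NFOs, against 42.4% and 65.1% of all genes. With 9 members, these counts lie within 2 genes of the background, and nothing particular to the members is read from them. Neurog1 and Neurog2 had peaks in both stages, and Neurod2 and Neurod4 in NFOs only. No OLIG2 peak lay in the body of any member. Neurod1 had none within 100 kb. The peaks nearest the 50 kb limit were that at 48.3 kb from Neurog1 in NFOs, just inside, and those at 54.6 kb from Neurog3 in OPCs and at 55.9 kb from Neurod2 in NFOs, just outside.

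At Neurog2 the OPC and NFO peaks upstream of the gene were the same site. The OPC peak at chr3:127626008-127626237 had a fold enrichment of 9.38 and the NFO peak, printed above, 20.4, which was higher than 97.7% of all listed NFO peaks. Their summits lay 7.0 kb upstream of the TSS, within the upstream H3K4me3 site described above and within an H3K27me3 peak of the same stage. It was the only site within 50 kb of a member that was listed in both stages. Over the whole lists, 14.3% of OPC and 6.26% of NFO OLIG2 peaks overlapped a peak of the other stage, 12.6% and 8.23% touched H3K4me3, and 10.5% and 2.44% touched H3K27me3. A second OPC peak at Neurog2, chr3:127648211-127648440, lay 15.2 kb downstream with a fold enrichment of 9.83. It touched H3K27me3, held no E-box and was not listed in NFOs.

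At Neurod4 the NFO peaks upstream had fold enrichments of 17.0 and 24.5, higher than 95.2% and 98.8% of all listed NFO peaks. Neither touched a listed H3K4me3 or H3K27me3 peak of NFOs. The TSS nearest to these OLIG2 peaks was that of Tespa1, at 11.3 and 8.28 kb, rather than that of Neurod4. At Neurod2 the NFO peaks had fold enrichments of 8.96, nearest to Neurod2 itself at 28.6 kb, and 4.99, nearest to Cdk12. At Neurog1 the OPC peak had 6.29 and lay nearest to Cxcl14, and the NFO peaks had 8.11, nearest to Tifab, and 3.30 with an FDR of 0.141, in 4930550C17Rik. Of these, only the Neurog2 peaks, the stronger Neurod2 peak and the weak Neurog1 peak had the member as the nearest TSS. Distance alone does not assign a peak to a gene.

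**Figure D5:**
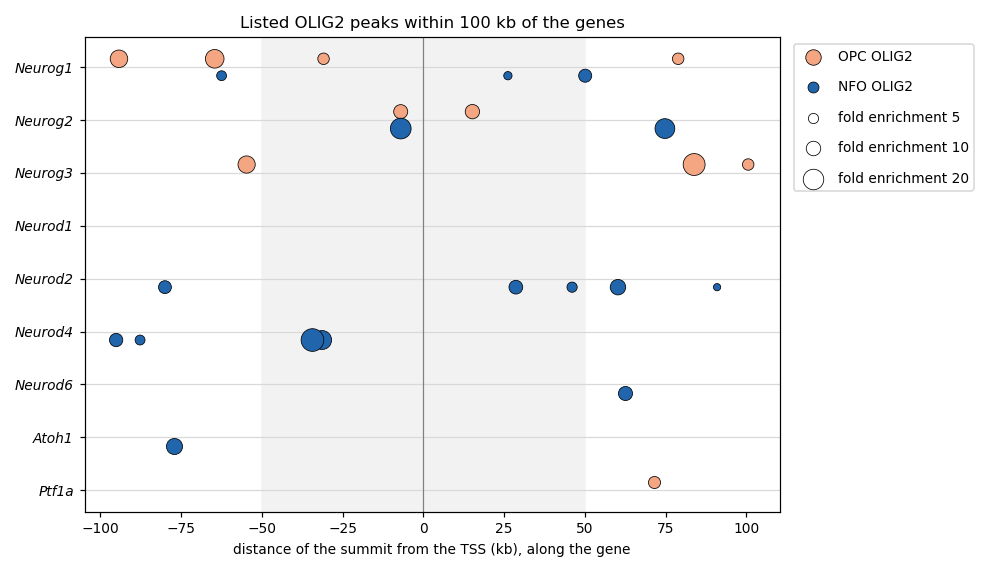
Listed OLIG2 peaks within 100 kb of each gene, with the distance of the summit from the TSS along the gene on the x axis (kb), 1 row per gene on the y axis, OPC peaks in orange, NFO peaks in blue, circle area in proportion to fold enrichment and the 50 kb on either side of the TSS shaded. The Neurog2 row alone shows an OPC and an NFO peak at the same distance, and the Neurod1 row is empty.

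Long runs of a single base recur in these OLIG2 peaks. Of the 10 listed peaks within 50 kb of members, 6 held a run of at least 15 A or 15 T, among them the 2 overlapping peaks at Neurog2 with a run of 18, the Neurod2 peak with 25 and the stronger Neurod4 peak with 18. The Neurod4 peak at 31.4 kb, with 17.0-fold enrichment, had a longest run of 6. Over the whole lists 52.8% of OPC peaks and 49.1% of NFO peaks held such a run, against 2.13% and 1.89% of windows of the same length 1 kb downstream, a comparison added after seeing the sequences. The libraries were made with the DNA SMART ChIP-Seq kit according to the Methods, and the part of these runs in the peak calls was not tested.

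None of the 9 members had a listed site in the OLIG2 or the IgG RIP-Seq. The OLIG2 list held 101310 sites over 613 genes and the IgG list 83195 sites over 618 genes, with no site of under 4 tags. Binding below that level was not detectable here. With 21938 protein-coding genes in all, most genes had no listed site. Nothing particular to the members is read from their absence.

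The other genes of the pathway were taken as 3 lists. The E protein, Id, Hes and Hey genes of the first list were K4 only at 11, 11 and 7 of 11 over the stages. The shares of all genes were 52.2%, 49.5% and 38.9%. In NFOs Hes6, Id1 and Tcf3 had no listed peak within 2 kb, and Id4 was mixed. No proneural member was K4 only at any stage.

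Among 16 other tissue-specific bHLH genes, 5, 3 and 1 were bivalent in NSCs, OPCs and NFOs, against 5.3%, 2.99% and 1.56% of all genes. K4 only were 5, 6 and 4, against 52.2%, 49.5% and 38.9%. K27 only were 2, 3 and 3, against 3.07%, 4.93% and 4.53%. H3K27me3 was listed at 8, 8 and 9 of the 16, against 33.7%, 24.7% and 13.2%, so it was not particular to the members. The oligodendrocyte gene Olig2 was K4 only at every stage, with fold enrichments for H3K4me3 of 10.0, 8.69 and 4.90. Of the genes whose state changed, Ascl2 went from bivalent to K27 only and Ascl4 from bivalent to K4 only. Ascl5 was K4 only in OPCs and had no peak otherwise, Atoh7 was K4 only until NFOs, where it was mixed, and Atoh8 went from K4 only to mixed to none.

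Of 20 genes that act with or after proneural factors in neurons, 5, 2 and 4 were bivalent, against 5.3%, 2.99% and 1.56% of all genes. K4 only were 6, 5 and 5, against 52.2%, 49.5% and 38.9%. K27 only were 0, 2 and 5, against 3.07%, 4.93% and 4.53%, and 6, 9 and 3 were mixed. The mixed counts have no share of all genes beside them and are not compared with the background. Listed H3K27me3 was found at 12, 16 and 14 of the 20, against 33.7%, 24.7% and 13.2% of all genes. Barhl1, a target of Atoh1, Dll4, a Notch ligand, and Cbfa2t3, a corepressor, were mixed in NSCs and OPCs and K27 only in NFOs. Dcx, a microtubule protein of migrating neurons, was K4 only except in NSCs, where no peak was near. Cbfa2t2 went from mixed to K4 only to none. Nhlh1 stood in both of these lists.

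The genes most like the members were found over all protein-coding genes by the Euclidean distance to the members' median in 6 values, the percent of the 4 kb around the TSS covered by each mark at each stage. Cldn7 came nearest at 7.39 percentage points, followed by Nkx1-1 at 13.7, Dmrt3 at 14.3, Kcnk15 at 15.7 and Tbx1 at 17.7. Cldn7 had H3K27me3 cover of 84.0, 71.7 and 54.5% in NSCs, OPCs and NFOs and no H3K4me3 cover.

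The labelled cell types were checked by H3K4me3 at marker genes. It was listed at 6, 6 and 4 of 6 NSC markers, at 6, 6 and 6 of 6 OPC markers and at 4, 5 and 2 of 8 NFO markers in NSCs, OPCs and NFOs. In NFOs Mbp, Mog, Myrf, Enpp6 and Bcas1 were among those with none. Over all genes H3K4me3 was listed at 67.1%, 62.5% and 47.9%, fewest in NFOs. The OPC markers had it at every stage. This mark thus did not tell the stages apart, and the NFO label was not borne out by it. H3K4me3 was also listed at 8, 8 and 5 of 8 neuronal, 3, 2 and 1 of 5 astrocyte, 1, 2 and 1 of 5 microglial and 2, 1 and 1 of 3 endothelial markers. H3K27me3 was listed at 6 of the 8 neuronal markers at each stage, against 33.7%, 24.7% and 13.2% of all genes. It was also listed at 3, 3 and 4 of 5 astrocyte and 2, 3 and 2 of 3 endothelial markers. Microglial markers had it at 1, 2 and 1 of 5, and NSC markers at 1, 3 and 2 of 6. At OPC markers the counts were 2, 0 and 0 of 6, and at NFO markers 2, 1 and 1 of 8. The part of other cells in the states of the members was not tested. The lists held 12688 to 36069 histone peaks and 7384 and 16911 OLIG2 peaks, and NFOs had the fewest H3K27me3 peaks.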

How the data were processed

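ChIP-Seq reads had been aligned by the authors (Bowtie2, mm10, unique reads only). Peaks came from SPP for OLIG2 and from MACS2 in its broad mode for both histone marks, less blacklisted regions. Tool versions are not given in the sources used here. The deposited lists give each peak's fold enrichment, a ratio over the control, from the authors' callers. The deposited lists also give the −log10 of the FDR and, for histone marks, of the p-value. The authors ran ASPeak on the RIP-Seq, whose deposited lists hold a tag count, a p-value and a transcript RPKM per site. The 3 input DNA libraries were not used here.

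All listed peaks were used, with genes from GENCODE M21 and RefSeq promoters. The limits of the Methods (FDR below 0.05, fold enrichment above 3.5 for histone marks and above 5 for OLIG2) were an alternative, as were other fold, distance and overlap limits. State assignment was tested on simulated data. Scripts ran in Python 3.11.15 with NumPy 2.4.6, pandas 2.3.3, pysam 0.24.0 and Matplotlib 3.10.9. The named genes were all 9 members, Olig2, and from each list up to 5 genes, in alphabetical order, whose state differed between stages. Barhl1, Cbfa2t2, Cbfa2t3, Dcx and Dll4 came from the last list, and Olig2 was named in any case. Values of some listed genes are not reported here. Members and lists were chosen with earlier results of these data known. With 1 library per group no test was run, and the peak lists do not give read depth. Fold enrichments were compared as listed.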

Additional observations from a re-analysis of the deposited data

How the results depend on the processing

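Of 73 alternative values, 49 stayed within 1.5 times the reported count or value and 24 did not. The 49 include the values with 1 TSS per gene, which could change only Neurog3, the only member with more than 1 TSS. They also include the RIP-Seq counts, which were 0 either way. An order between stages did turn, since K27 only members were fewer in OPCs than in NFOs with all listed peaks and more with fold enrichment above 5. With the limits of the Methods, 1 member was K27 only in NSCs (2.32% of all genes). With fold enrichment above 5 for histone marks, listed H3K4me3 was found at 2, 1 and 1 members in NSCs, OPCs and NFOs (58.0%, 50.4% and 23.9% of all genes), listed H3K27me3 at 3, 6 and 4 (5.85%, 11.03% and 3.44%), bivalent members numbered 3, 1 and 0 (1.19%, 1.53% and 0.934%), and K27 only members 0, 4 and 2 (0.679%, 3.57% and 1.09%). Within 1 kb of the TSS, 1 member was K27 only in NSCs and 1 in OPCs (1.86% and 3.77%), and 3 had H3K4me3 in OPCs (60.0%). With an overlap of 200 bp, 1 member was bivalent in NFOs (0.975%). With both marks within 2 kb of the TSS, chosen after seeing the data, 1 member was bivalent in OPCs and 1 in NFOs, and 5 were K27 only in OPCs (5.17%). For OLIG2, fold enrichment above 10 left 0 members in OPCs and 2 in NFOs, 20 kb left 1 and 1, and 100 kb gave 4 in OPCs, against 18.1%, 34.6%, 27.9%, 46.5% and 59.0% of all genes. The cause of these shifts beyond fewer or more peaks was not tested. No paired analysis was possible because each group had 1 library and no result came from a test. Without depth or replicates, a peak that is absent from a list was not detectable in that library under the authors' settings.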
